A study of Mus musculus with 15 samples.

Results

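The comparison described here set choroid plexus of Add1 null mice against choroid plexus of Add1 heterozygous mice. Its members were the 10 arrays of these 2 groups, 5 null and 5 heterozygous, of the 15 arrays in the series. The other 5 arrays, from wild-type mice, entered the statistical fit for the spread and served for a second question, whether the loss of the remaining allele moved a gene differently from the loss of the first. All animals were on the C57BL/6J background, were 3 weeks old and were labelled male. The tissue was choroid plexus of the fourth ventricle, taken before hydrocephalus had developed. Null mice carried 2 disrupted copies of Add1, heterozygous mice carried 1, and wild-type mice carried none. No other allele or agent is named for any group, so no other allele or treatment is known to be shared by them. The sources used here do not give the part of the gene that was disrupted, or whether an array came from 1 animal or from a pool, so the p-values below measure the spread between arrays.

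Add1 encodes alpha-adducin, a protein that caps the fast-growing ends of actin filaments and fastens them to spectrin in the membrane skeleton that lines the inner face of the cell membrane. Alpha-adducin pairs with beta- or gamma-adducin, the products of Add2 and Add3. The choroid plexus is a sheet of secretory epithelium over a core of vessels and stroma. It makes most of the cerebrospinal fluid, moves ions, nutrients and drugs between blood and that fluid, and releases carrier proteins such as transthyretin.

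RNA was measured on whole-transcript expression arrays, and values are on a log2 scale, so that a difference of 1 is a 2-fold change. One probe set was kept for each gene, the one with the highest mean over the 15 arrays, and 10069 genes passed the filter on low values. A gene is called higher or lower, or said to have risen or fallen, where its adjusted p in null against heterozygous arrays was below 0.05 (limma, Benjamini-Hochberg adjustment over the 10069 genes). For most genes described with their values, the text says where a call depended on 1 array, from 15 further fits that each left out 1 array. For Fkbp4, Ahsa1, Khk, Zfp512, Hs3st1 and Lrpap1 that is not given. The gene lists below were chosen with earlier results of these data known, so the shares called describe the lists and do not test them.

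Of the 10 arrays, 4 stood apart from the rest of their group. Null arrays 1 and 5 had Xist, the RNA of the silenced X chromosome of females, at 9.09 and 9.69, against 3.11 to 3.88 on the other 13 arrays of the series. On the same pair of arrays the Y-linked gene Eif2s3y was at 3.19 and 3.34, against 6.92 to 7.60 elsewhere, so both went against their label of male. Heterozygous array 1 had the cerebellar granule cell gene Gabra6 at 7.80, against 4.42 to 5.69 on the other 14 arrays. Null array 2 lay closest to the heterozygous arrays on the first principal component, which held 31.7% of the variance. There it scored -0.763, between heterozygous arrays at -11.8 to -2.65 and the other null arrays at 9.42 to 22.0. An unexplained number in the labels differed between most null and heterozygous arrays, and number 460 alone was carried by both genotypes, on null array 2 and heterozygous array 5.

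The first measurement was of the targeted gene itself. Add1 was at 7.68, 7.68, 7.74, 7.92 and 7.79 in heterozygous arrays 1 to 5 and at 7.66, 7.74, 7.76, 7.46 and 7.41 in null arrays 1 to 5. Null arrays 1, 4 and 5 were below every heterozygous array, the first of them only just, and null arrays 2 and 3 lay inside the heterozygous range. The group means were 7.76 ± 0.0996 (SD, n = 5) and 7.61 ± 0.161 (SD, n = 5), a difference of -0.16 with a standard error of 0.0791 (two-sided exact permutation p = 0.143, where 5 against 5 allows no value below 0.00794). A whole-transcript probe set can keep signal from exons outside a disruption, so Add1 could not be used to check the null labels. Its partner Add3 differed by 0.06 (adjusted p = 0.577), and Add2 did not pass the filter on low values.

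Expression of 798 of the 10069 genes differed between null and heterozygous choroid plexus, which is 7.93% of those tested. Of these, 435 (4.32%) were higher in null and 363 (3.61%) were lower. Most differences were small, with a median size of 0.33 on the log2 scale among the called genes. Only 79 called genes moved by 1.5-fold or more, 57 of them up and 22 down. At an unadjusted p under 0.05 there were 2599 genes, and the median difference over all tested genes was 0.008. In 580 genes (5.76%) all 5 null arrays lay on 1 side of all 5 heterozygous arrays, and 418 of these were called. The X chromosome held 35 of the called genes (19 higher, 16 lower) among 304 tested. The other tested genes held 763 (416 higher, 347 lower) among 9765, a smaller share. Both arrays with Xist signal were in the null group. These are bulk samples, so fewer cells of a type and less RNA per cell cannot be told apart. The count of 798 fell to 356 without null array 1, to 402 without null array 3, to 454, 519 and 432 without heterozygous arrays 1, 2 and 3, and rose to 1815 without null array 2. It was 330 without null arrays 1 and 5 together.

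**Figure D1:**
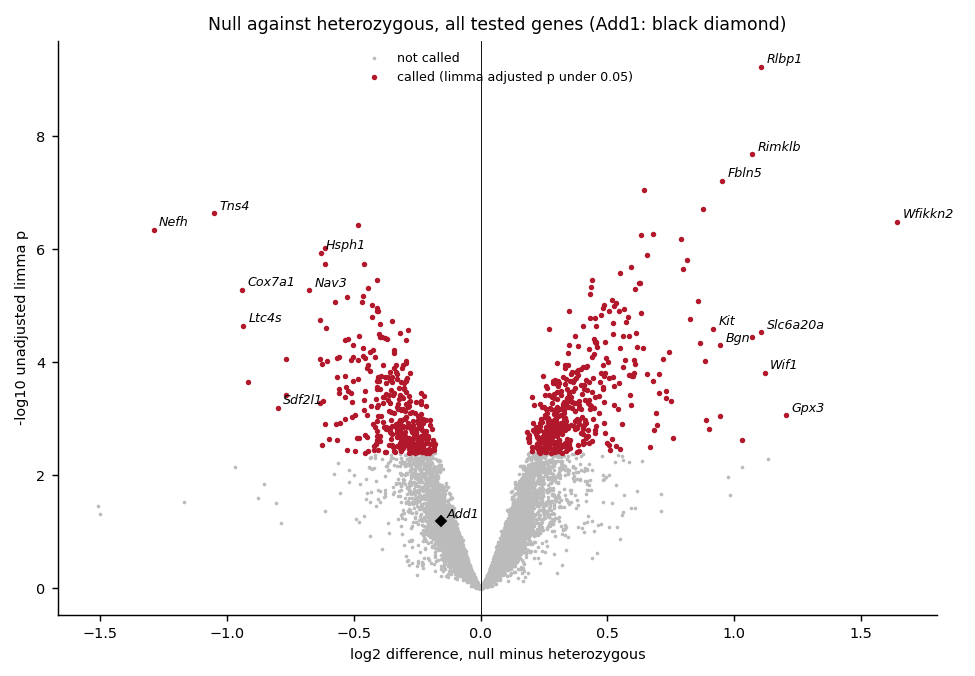
Each point is 1 of the 10069 tested genes. The horizontal axis is the mean log2 value in 5 null arrays minus that in 5 heterozygous arrays, and the vertical axis is minus log10 of the unadjusted limma p. Red points are the 798 called genes, grey points the rest, and the black diamond is Add1 at -0.16. The largest rise was Wfikkn2 at 1.64 and the largest fall Nefh at -1.29.

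The 15 largest rises are described by the kind of protein encoded, a grouping made after the genes were known. Wfikkn2, a secreted protein that binds myostatin and its relative Gdf11, was at 7.91, 8.12, 8.41, 8.46 and 8.02 in heterozygous arrays and at 10.75, 9.18, 9.94, 9.66 and 9.60 in null arrays. Every null array was above every heterozygous array, and null array 1 was highest. The mean rose from 8.18 ± 0.242 (SD, n = 5) to 9.83 ± 0.584 (SD, n = 5), a difference of 1.64 with a standard error of 0.206, or 3.12-fold (adjusted p = 0.000464). Wif1, a secreted inhibitor that binds Wnt ligands, was at 4.89 to 5.48 in heterozygous arrays and at 5.46, 6.01, 7.14, 6.38 and 6.47 in null arrays. Null array 1 lay within the heterozygous range and the other 4 above it, and the mean rose by 1.12 (standard error 0.233, adjusted p = 0.00986).

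Matrix genes rose in the same comparison. Fbln5, which encodes a protein needed to assemble elastic fibres, was at 8.03, 7.97, 8.22, 7.96 and 7.80 in heterozygous and 9.21, 9.01, 8.87, 9.08 and 8.57 in null arrays. The groups did not overlap, and the rise was 0.95 (standard error 0.106, adjusted p = 0.000206). The X-linked proteoglycan gene Bgn was at 6.34 to 6.95 in heterozygous arrays and at 7.92, 7.22, 7.31, 7.72 and 8.23 in null arrays, a rise of 0.94 (adjusted p = 0.00537) with no overlap. Null arrays 5 and 1, those with Xist, were its highest. Dcn, which encodes the related proteoglycan decorin, rose by 0.83 (adjusted p = 0.00309), from 8.51 to 9.11 in heterozygous arrays to 9.36 to 9.86 in null arrays. Apod, a secreted carrier of small lipids, rose by 0.89 (adjusted p = 0.0258), a call that was lost without null array 1, 3 or 4 or heterozygous array 3 or 5, with adjusted p up to 0.0688.

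Among transporters, Slc6a20a, a carrier of proline and related imino acids, was at 9.24, 9.63, 9.41, 9.57 and 9.35 in heterozygous and 11.28, 9.74, 10.56, 10.48 and 10.67 in null arrays. Null array 2 was only just above the heterozygous arrays and null array 1 was furthest from them. The rise was 1.11 (standard error 0.198, adjusted p = 0.00431). Slc6a15, a carrier of neutral amino acids, was at 8.22, 8.50, 8.70, 8.56 and 8.32 against 9.51, 9.01, 9.35, 9.26 and 9.55 in null arrays. No array overlapped and the rise was 0.88 (standard error 0.106, adjusted p = 0.000383). Slc26a7, an anion transporter, rose by 1.07 (adjusted p = 0.00446), with heterozygous arrays at 5.0 to 5.77 and null arrays at 5.74 to 7.12, so that null array 2 overlapped. Slc7a11, the exchanger that takes up cystine for glutathione synthesis, rose by 0.90 (adjusted p = 0.0305), and lost the call without null array 3 or 4 or heterozygous array 1, 3 or 5 (adjusted p up to 0.0834).

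Enzymes and binding proteins were a further part of the largest rises. Rlbp1, which encodes a protein that carries retinaldehyde, was at 5.49, 5.16, 5.33, 5.49 and 5.49 in heterozygous and 6.67, 6.55, 6.39, 6.52 and 6.36 in null arrays. The gap between the groups was wider than the range within either, and the rise of 1.11 (standard error 0.0908) had an adjusted p of 5.92e-06. Rimklb, a ligase that joins glutamate to N-acetylaspartate, rose by 1.07 (standard error 0.111, adjusted p = 0.000104), from 5.15 to 5.64 in heterozygous arrays to 6.21 to 6.71 in null arrays. Gpx3, the secreted glutathione peroxidase, was at 5.81 to 6.04 in heterozygous arrays but at 8.74, 6.37, 6.96, 6.50 and 7.13 in null arrays. All null arrays were higher, null array 1 by far the most, and the rise of 1.20 (adjusted p = 0.0235) missed the threshold without heterozygous array 3 (adjusted p = 0.0516). Null arrays 1 and 5, those with Xist, were its highest. Without both the rise was 0.67 (adjusted p = 0.0141). Gpx3 was not called with sex as a covariate (adjusted p = 0.151) or with only the null and heterozygous arrays (adjusted p = 0.0685). Sult1c2, a sulfotransferase, rose by 0.94 (adjusted p = 0.0236), and missed the threshold without heterozygous array 1 (adjusted p = 0.0598). Cep290, a gatekeeper protein at the base of cilia, rose by 1.03 (adjusted p = 0.039) and was called in only 7 of the 15 fits that left out 1 array (lost without null array 1, 3, 4 or 5, heterozygous array 1, 2 or 3, or wild-type array 2, adjusted p up to 0.0926).

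The largest falls were in genes of varied roles. Nefh, the heavy neurofilament protein, was at 7.11, 7.15, 7.30, 6.80 and 6.69 in heterozygous and 5.51, 6.35, 5.29, 5.73 and 5.73 in null arrays. No arrays overlapped, and the mean fell from 7.01 ± 0.255 (SD, n = 5) to 5.72 ± 0.396 (SD, n = 5), a difference of -1.29 with a standard error of 0.165 (adjusted p = 0.000502). Among 11 neuron markers Nefh alone was called. Heterozygous array 1 had the highest mean of these markers (7.17 against 5.58 to 6.53 on the other 9 arrays). For Nefh it was at 7.11, within the range of the other heterozygous arrays. The part of neuronal RNA in the fall of Nefh was not tested. Tns4, a tensin found at focal adhesions, was at 6.31, 6.35, 6.46, 6.40 and 6.30 against 5.34, 5.72, 4.81, 5.42 and 5.28, a fall with a difference of -1.05 (standard error 0.129, adjusted p = 0.000385) and no overlap. Cox7a1, a subunit of cytochrome c oxidase, was at 7.38 to 7.71 in heterozygous arrays and at 6.13, 6.89, 6.44, 6.72 and 6.98 in null arrays. Its difference was -0.94 (standard error 0.145, adjusted p = 0.00178), again with the groups apart.

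Ltc4s, the enzyme that makes leukotriene C4, was at 8.45 to 8.62 in heterozygous arrays and at 7.24, 8.24, 7.16, 7.43 and 8.01 in null arrays (difference -0.93, adjusted p = 0.00361). Null arrays 2 and 5 were nearest to the heterozygous ones. Ins2, an insulin gene, fell by 0.63 on the log2 scale (adjusted p = 0.00309), with heterozygous arrays at 6.01 to 6.32 and null arrays at 5.25 to 5.84. Mrap2, an accessory protein of melanocortin receptors, had a difference of -0.77 (adjusted p = 0.00743), Nav3, a microtubule-associated protein, -0.67 (adjusted p = 0.00178), and Plcd4, a phospholipase C, -0.62 (adjusted p = 0.00826). Ppp2r2c, a regulatory subunit of protein phosphatase 2A encoded on chromosome 5 like Add1, had a difference of -0.61 (adjusted p = 0.00103), with heterozygous arrays at 8.05 to 8.44 and null arrays at 7.39 to 7.75. Ceacam16 and Slc35f1 each had a difference of -0.63 (adjusted p = 0.00737 and 0.0173), and the small heat shock protein gene Hspb6 one of -0.62 (adjusted p = 0.0167). Cfap52, a protein of motile cilia, fell with a difference of -0.62 (adjusted p = 0.042) but was called in only 5 of the 15 fits that left out 1 array (lost without null array 3, any heterozygous array, or wild-type arrays 1 to 4, adjusted p up to 0.0951).

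Of the 15 largest rises and the 15 largest falls, 21 had groups that did not overlap and 23 kept their call whichever array was left out. Groups did not overlap in 5.76% of all tested genes and in 418 of the 798 called genes. The 30 were chosen for large differences between these same arrays, which favours groups that lie apart. Without null arrays 1 and 5, 24 of the 30 kept it, and 18 did so with sex, read from Xist, as a covariate. With the label number as a covariate 17 of the 30 kept it. Null array 2 and heterozygous array 5 carry the same number, 460, and between this pair 28 of the 30 genes differed in the direction of the whole comparison. The exceptions were Cep290, at -0.54 between the pair, and Sdf2l1, at 0.28. Both arrays were in the fit from which the 30 genes were chosen. Agreement within the pair is therefore partly built in and is no test of the label number.

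**Figure D2:**
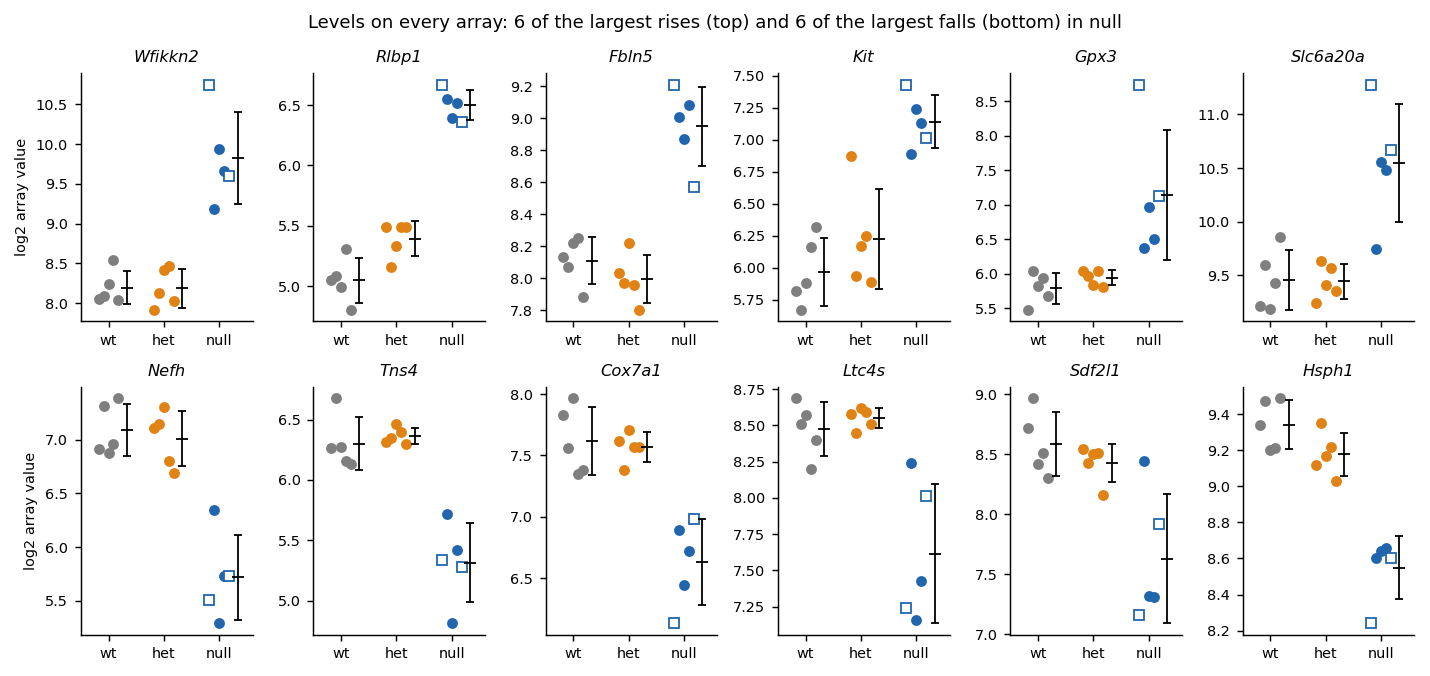
Log2 array value (vertical axis) of 12 genes among the largest changes or the groups described below, in choroid plexus of the 3 genotypes. Each point is 1 array, open squares are null arrays 1 and 5, and bars give the mean ± SD (n = 5). Wfikkn2, Rlbp1, Fbln5, Kit, Gpx3 and Slc6a20a lie higher in all null arrays than in any heterozygous array, and Nefh, Tns4, Cox7a1, Ltc4s and Hsph1 lie lower, whereas for Sdf2l1 null array 2, at 8.44, lies inside the heterozygous range of 8.16 to 8.54.

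Genes of protein folding in the endoplasmic reticulum were lower in null choroid plexus. Secretory cells fold their products there with the help of chaperones such as BiP, the product of Hspa5, and when folding falls behind, the sensors Ire1, Perk and Atf6 raise the transcription of those chaperones. Of 27 tested genes of this unfolded protein response, 8 fell (29.6% called, against 7.93% of all tested genes), none rose and 23 had a difference below 0, with a median difference of -0.28 against 0.008 over all tested genes. The mean level of the 27 genes was 8.47 to 8.60 over null arrays and 8.66 to 8.82 over heterozygous arrays, with no overlap. The number that fell was 5 to 10 in the fits that left out 1 array, with 5 without null array 1. It was 5 without null arrays 1 and 5, 2 with sex as a covariate and 1 with the label number as a covariate.

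Several of these genes carry in their promoter the ER stress response element, to which Atf6 binds together with NF-Y. The stretches below, which show why the element is described here, are from RefSeq promoters (250 bases before to 50 after the gene start, GRCm38.p6), are written 5′ to 3′ on the gene's strand, and have the matching letters in capitals. The letters searched were CCAAT, any 9 bases and CCACG, on both strands, so that the reverse complement reads CGTGG, 9 bases, ATTGG. The match starts 65 bases before the gene start in Hspa5, 98 in Pdia6 and 162 in Calr, and Hsp90b1 has matches at 107 and 212.
Hspa5, chr2:34772005-34772063, plus strand: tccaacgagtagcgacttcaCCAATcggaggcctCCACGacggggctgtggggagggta
Pdia6, chr12:17266471-17266529, plus strand: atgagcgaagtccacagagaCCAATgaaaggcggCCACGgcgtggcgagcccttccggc
Calr, chr8:84847055-84847113, minus strand: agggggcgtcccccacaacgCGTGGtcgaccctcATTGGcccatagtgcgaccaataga
Hsp90b1, chr10:86705513-86705571, minus strand: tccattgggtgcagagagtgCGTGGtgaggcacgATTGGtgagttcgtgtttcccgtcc
Hsp90b1, chr10:86705618-86705676, minus strand: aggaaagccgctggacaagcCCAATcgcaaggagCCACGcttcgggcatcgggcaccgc

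Those 4 genes fell. Hspa5 was at 11.72, 11.83, 11.80, 11.79 and 11.63 in heterozygous and 11.33, 11.52, 11.44, 11.49 and 11.52 in null arrays, a difference of -0.29 (standard error 0.0589, adjusted p = 0.00813) with no overlap. Hsp90b1, the chaperone Grp94, was at 11.63 to 11.71 against 11.10, 11.38, 11.27, 11.39 and 11.57 (difference -0.32, adjusted p = 0.0128), null array 5 being nearest to the heterozygous arrays. Calr, the lectin chaperone calreticulin, was at 10.80 to 10.91 against 10.32 to 10.74 (difference -0.37, adjusted p = 0.0047). Null array 2 was the highest null array for Calr and was still below every heterozygous one. Pdia6, a disulfide isomerase, was at 10.78 to 10.99 against 10.33 to 10.76 (difference -0.38, adjusted p = 0.00461), also without overlap. Of the promoters matched by symbol to tested genes, 13 of 8205 (0.158%) hold the element, and 8 of them belong to the 23 list genes matched. Of the 13 genes 4 fell, none rose, and the median difference was -0.18. The 4 are the list genes shown here. Outside the list, Acacb (0.056), Alg12 (-0.07), Ero1b (-0.184), Pan2 (0.096) and Spats2l (0.056) hold the element, and none was called. Alg12 shares its stretch with the list gene Creld2. A link between the element and the falls was not tested.

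The other falls of the list were in genes with no match in this window or, for Manf, no entry in the promoter table. Manf, a secreted factor released when the endoplasmic reticulum is stressed, was at 7.77, 7.98, 7.78, 7.69 and 7.35 in heterozygous and 7.08, 7.23, 7.17, 7.24 and 7.07 in null arrays (difference -0.56, standard error 0.109, adjusted p = 0.0072), with no overlap. Sdf2l1, a partner of BiP, was at 8.16 to 8.54 in heterozygous arrays and at 7.16, 8.44, 7.32, 7.31 and 7.92 in null arrays. Null array 2 lay among the heterozygous arrays, and the fall of 0.80 on the log2 scale (adjusted p = 0.0191) was lost without null array 1 or 3 (adjusted p up to 0.0592). Pdia3 was lower by a difference of -0.30 (adjusted p = 0.0206, lost without null array 1 or 3 or heterozygous array 3, up to 0.055). Xbp1, the transcription factor spliced by Ire1, had a difference of -0.45 at the threshold (adjusted p = 0.05 after rounding), and was called in 2 of the 15 fits. Creld2 (-0.42, adjusted p = 0.055), Syvn1 (-0.31, adjusted p = 0.11), Canx (-0.17, adjusted p = 0.149) and Dnajc3 (-0.09, adjusted p = 0.32) hold the element and did not pass. Of 28 translocon and signal peptidase genes 1 fell (3.57% called, against 7.93% of all tested genes), with a median of -0.06. Of 14 targets of Atf4, the Perk branch, 2 rose (Slc7a11 and Vldlr, the latter called in 6 of the 15 fits) and none fell (14.3% called). These counts ranged over 0 to 5 and 0 to 3 in the fits that left out 1 array.

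Of 18 tested heat shock genes 5 fell and 2 rose (38.9% called), 14 had a difference below 0, and the median was -0.21. The falls were Hsph1, Hspe1, Stip1, Fkbp4 and Ahsa1, all chaperones or their helpers, and the rises were Cirbp and Rbm3, RNA-binding proteins known for rising in the cold, which are not chaperones. Fkbp4 was called in 15 and Ahsa1 in 18 of 30 other settings of the fit. The count of falls was 3 to 6 in the fits that left out 1 array, with 3 without null array 1, heterozygous array 1 or heterozygous array 4. It was 2 with sex as a covariate and 2 with the label number, and the rises numbered 1 without null array 1 and 0 with the label number.

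Hsph1, an Hsp110 that resets Hsp70, was at 9.12, 9.35, 9.17, 9.22 and 9.03 in heterozygous and 8.24, 8.60, 8.64, 8.66 and 8.60 in null arrays (difference -0.63, standard error 0.0868, adjusted p = 0.00083). The groups were apart, with null array 1 lowest. Hspe1, the mitochondrial co-chaperonin, was at 9.42 to 9.67 against 8.92, 8.58, 9.02, 9.33 and 9.11 (difference -0.51, adjusted p = 0.00743), and Stip1, which joins Hsp70 to Hsp90, had a difference of -0.30 (adjusted p = 0.00826), both without overlap. The cold-responsive Cirbp was at 7.79 to 8.35 in heterozygous and 8.35 to 8.84 in null arrays (difference 0.56, adjusted p = 0.00446), and the X-linked Rbm3 at 10.23 to 10.61 and 10.37 to 11.08 (difference 0.49, adjusted p = 0.017). Rbm3 overlapped between the groups and lost its call without null array 1 (adjusted p = 0.0525). Hspa1a, the inducible Hsp70 (-0.42, adjusted p = 0.0519), and Hspd1, the partner of Hspe1 (-0.21, adjusted p = 0.0578), did not pass.

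The heat shock element, bound by Hsf1, was searched in the same promoters, on both strands, as GAA, any 2 bases, TTC, any 2 bases and GAA, of which the reverse complement is TTC, 2 bases, GAA, 2 bases, TTC. It was found in 43 of 8205 promoters of tested genes (0.524%) and in 4 of the 15 list genes matched, 2 of which fell and are shown here with the matching letters in capitals. In Hspe1 the match starts 89 bases before the gene start, overlaps a further match, and lies in a window shared with the divergent gene Hspd1. In Hsph1 it starts 36 bases after the gene start.
Hspe1, chr1:55088039-55088091, plus strand: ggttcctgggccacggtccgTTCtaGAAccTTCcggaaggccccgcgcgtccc
Hsph1, chr5:149636288-149636300, minus strand: TTCtgGAAagTTC
Among all 43 genes with a match, 2 fell, 1 rose and 25 had a difference below 0, with a median of -0.01, which is near that of all tested genes.

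The respiratory chain passes electrons through complexes I to IV in the inner mitochondrial membrane, and complex V uses the resulting proton gradient to make ATP. Of 54 tested subunit genes of these complexes and cytochrome c, 17 fell (31.5% called), none rose and 53 had a difference below 0, with a median of -0.21. The mean level of the 54 genes was 9.43 to 9.57 over heterozygous arrays and 9.14 to 9.41 over null arrays, with null array 2 highest among the null ones. The count of falls depended on single arrays. It was 9 without null array 1, 11 without null array 3, 9, 8 and 11 without heterozygous arrays 1, 3 and 4, and 32 without null array 2. It was 4 without null arrays 1 and 5, 3 with sex as a covariate and 2 with the label number as a covariate.

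Cycs, which encodes cytochrome c, was at 9.91, 9.86, 9.87, 9.80 and 9.84 in heterozygous and 9.19, 9.41, 9.41, 9.57 and 9.36 in null arrays. Both groups were narrow and apart, and the difference was -0.47 (standard error 0.0753, adjusted p = 0.00229). In complex I, Ndufa4, since reassigned to complex IV, was at 11.36 to 11.54 against 11.10 to 11.28 (difference -0.29, adjusted p = 0.00477) and Ndufb9 at 8.16 to 8.40 against 7.69 to 8.0 (difference -0.38, adjusted p = 0.00826). Neither overlapped, and in complex IV Cox5b fell from 10.89 to 10.97 in heterozygous arrays to 10.46 to 10.79 in null arrays (difference -0.31, adjusted p = 0.00864). All of these kept their call whichever array was left out. Of 37 mitochondrial ribosome genes 5 fell (13.5%) and 31 had a difference below 0 (median -0.15), led by Mrpl42 (difference -0.46, adjusted p = 0.0135) and Mrps25 (difference -0.37, adjusted p = 0.0112). That count was 11 without null array 2 and 3 without null array 3 or heterozygous array 1, 3 or 4, and it was 3 without null arrays 1 and 5, 1 with the sex covariate and 0 with the label number. Of 33 genes of ribosome assembly 3 fell (9.09% called, near the 7.93% of all tested genes). They included Nop10, a small protein of the pseudouridine-forming particles (difference -0.44, adjusted p = 0.00622). Their count was 1 to 7 in the fits that left out 1 array.

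Of 24 tested genes of cholesterol and fatty acid synthesis, 2 fell and 1 rose (12.5% called, against 7.93% of all tested genes). Differences were below 0 in 21 of the 24, with a median of -0.18. The riser was Srebf1, the transcription factor that drives fatty acid synthesis genes, at 7.97 to 8.36 in heterozygous and 8.31 to 8.87 in null arrays (difference 0.47, adjusted p = 0.0111). The fallers were the isomerase gene Idi1 (difference -0.56) and the desaturase gene Scd1 (difference -0.55), which was called in 9 of the 15 fits and lost without null array 1, 3 or 4 or heterozygous array 1, 2 or 5 (adjusted p up to 0.0608). The count of falls ran from 0 to 7 in the fits that left out 1 array, and Idi1 lost its call without any of the heterozygous arrays.

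Growth factor receptors were among the genes that rose. Receptor tyrosine kinases bind growth factors outside the cell and start signalling through ERK and Akt inside it. Of 17 tested, 8 rose, 1 fell (52.9% called) and 14 had a difference above 0, with a median of 0.34. The mean level of the 17 was 7.30 to 7.45 over heterozygous and 7.57 to 7.81 over null arrays, with no overlap. The number that rose was 6 to 9 in the fits that left out 1 array, 9 without null arrays 1 and 5, 6 with sex as a covariate and 4 with the label number as a covariate.

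Kit, the receptor of stem cell factor, was at 6.87, 5.94, 6.17, 6.25 and 5.89 in heterozygous and 7.43, 6.89, 7.24, 7.13 and 7.01 in null arrays. Heterozygous array 1 came just below null array 2, all other heterozygous arrays were well below, and the rise was 0.92 (standard error 0.162, adjusted p = 0.00386). Pdgfra, the receptor of platelet-derived growth factor on stromal cells, was at 7.66 to 8.32 against 9.38, 8.29, 9.16, 8.72 and 8.75, with null array 2 overlapping (rise 0.88, adjusted p = 0.00752). Igf1r, the receptor of insulin-like growth factor, rose by 0.61 (adjusted p = 0.00813), from 7.82 to 8.36 in heterozygous arrays to 8.50 to 9.22 in null arrays. The insulin receptor gene Insr was at 8.09 to 8.25 in heterozygous and 8.43 to 8.78 in null arrays (rise 0.43, adjusted p = 0.00301), with no overlap. Kdr, the endothelial receptor of vascular endothelial growth factor, was at 6.70 to 7.01 against 7.10 to 7.58 (rise 0.52, adjusted p = 0.00336), and Fgfr2 rose by 0.34 (adjusted p = 0.0065). Fgfr3 (0.40) and Fgfr1 (0.35) rose too, with calls in 10 and 3 of the 15 fits, and Egfr, which was lower by 0.30 on the log2 scale, lost its call without null array 1 or 3 or heterozygous array 2, 3, 4 or 5. Of 11 genes of ERK feedback, 2 rose in the whole comparison (18.2% called), 0 to 2 when an array was left out. They were Spred2 (0.26) and Spry1 (0.26), called in 11 and 9 of the 15 fits.

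Some secreted inhibitors of Wnt, BMP and TGF-beta ligands rose as well. Of 10 tested, 5 rose (50%), none fell and 8 had a difference above 0, with a median of 0.39, while 13 further members of the list did not pass the filter on low values. The filter asked for values above 5.33 in 5 arrays, the size of 1 group, so genes high in null arrays alone could pass. Of the heterozygous arrays, only array 4 was above 5.33 for Bmper. The list was also chosen with earlier results of these data known, so the 50% is a description and not a test. Bmper, which binds BMPs outside the cell, was at 4.99, 5.17, 5.25, 5.38 and 5.13 in heterozygous and 5.96, 5.79, 5.93, 5.82 and 5.65 in null arrays. The groups were apart, and the rise was 0.65 (standard error 0.0739, adjusted p = 0.000221). Sfrp5, a secreted Wnt antagonist, was at 6.12 to 6.56 against 6.53 to 7.13 (rise 0.57, adjusted p = 0.00743), with null array 5 overlapping. Its relative Sfrp1 rose by 0.24 (adjusted p = 0.0392, called in 8 of the 15 fits), and Wfikkn2 and Wif1 were given above. The number that rose was 4 to 6 when an array was left out and 3 with the label number as a covariate. Bmp4, a ligand of the BMP family, rose too, from 6.70 to 7.17 in heterozygous arrays to 7.33 to 7.77 in null arrays (difference 0.66, standard error 0.0911, adjusted p = 0.000857).

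Of 13 genes of retinoid handling 3 rose (23.1%, against 7.93% called over all tested genes), as many as in every fit that left out 1 array, with 2 without null arrays 1 and 5 and 1 with sex as a covariate. They were Rlbp1, Rdh10, which oxidises retinol to retinaldehyde (8.83 to 8.96 in heterozygous, 9.06 to 9.49 in null arrays, rise 0.38, adjusted p = 0.00978), and Dhrs3, which reduces retinaldehyde back to retinol (rise 0.28, adjusted p = 0.0153). Their groups did not overlap. The retinol carrier Rbp4 had a difference of 0.51 (adjusted p = 0.254) and transthyretin, Ttr, one of -0.04 (adjusted p = 0.735). Of 7 hedgehog genes the co-receptors Boc (0.37) and Gas1 (0.33) rose (28.6%), with calls in 11 and 10 of the 15 fits and none without null array 1 or 3 or heterozygous array 3, and the target gene Ptch1 had a difference of 0.15 (adjusted p = 0.11).

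**Figure D3:**
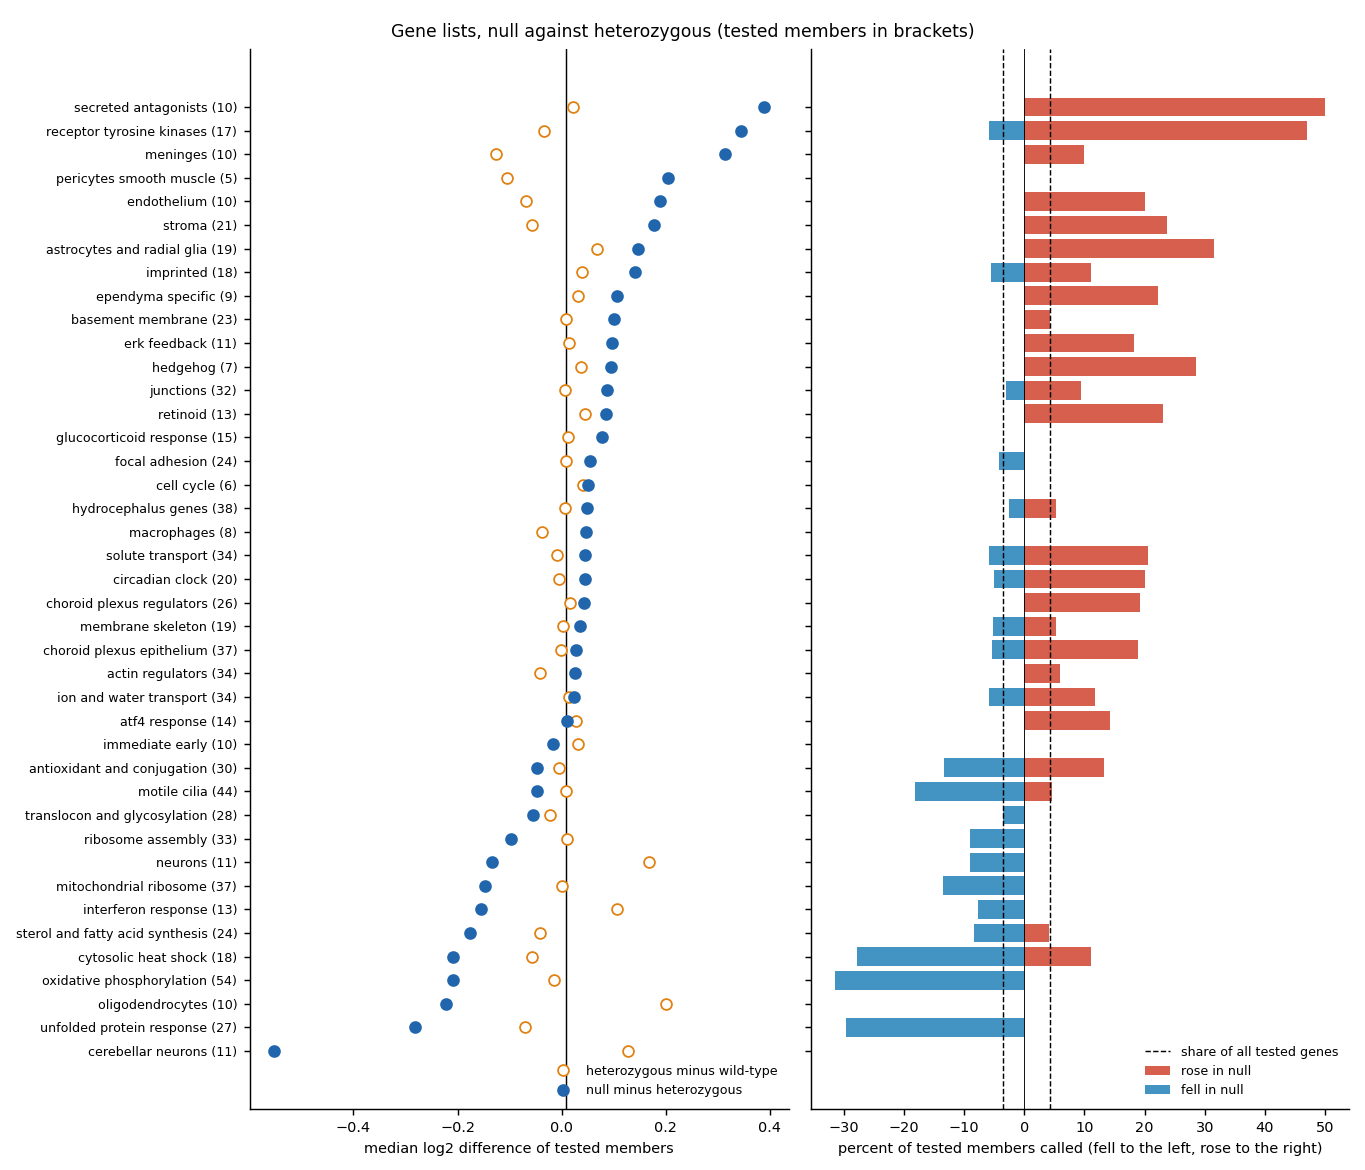
Gene lists with at least 5 tested members. On the left, the median log2 difference of each list in null minus heterozygous (filled blue) and heterozygous minus wild-type arrays (open orange), with a line at the median of all tested genes, 0.008. Both differences use the heterozygous arrays, and they were not compared by a test for any list. On the right, the percent of tested members that fell (to the left) or rose (to the right) in null against heterozygous arrays, with dashed lines at the shares of all tested genes, 3.61 and 4.32. Among lists with 5 or more falls the unfolded protein response lies lowest (-0.28), and among lists with 5 or more rises the secreted antagonists lie highest (0.39).

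Transport genes of the epithelium changed in both directions. Among 34 carriers of amino acids, nucleosides, vitamins and organic ions 7 rose and 2 fell, with a median of 0.045. The share called was 26.5%, against 7.93% of all tested genes. Besides Slc6a20a and Slc6a15 the rises included Slc2a1 and Slc22a8. Slc2a1, the glucose carrier Glut1, was at 9.76 to 9.99 in heterozygous and 10.05 to 10.60 in null arrays (rise 0.42, adjusted p = 0.0084), and Slc22a8, the organic anion carrier Oat3, at 7.84 to 8.19 and 8.24 to 8.67 (rise 0.47, adjusted p = 0.00986). Neither overlapped. Slc20a2, a phosphate carrier, rose by 0.44 (9.12 to 9.25 in heterozygous, 9.33 to 9.89 in null arrays, adjusted p = 0.0072), and was counted with the ion carriers. The falls were Slc35f1 and Slc22a5, the carnitine carrier, which fell by 0.32 on the log2 scale, a call lost without null array 1 or 3 or heterozygous array 2 or 3. The number that rose was 4 to 9 when an array was left out, with 4 without null array 1. The number that fell was 1 to 4, with 4 without null array 2.

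Among 34 genes of ion and water transport 4 rose and 2 fell (17.65% called, against 7.93% of all tested genes), with a median of 0.02. Wnk4, a kinase that regulates salt cotransporters, was at 5.38, 5.39, 5.52, 5.60 and 5.10 in heterozygous and 6.72, 5.95, 6.19, 6.00 and 5.64 in null arrays, with no overlap (rise 0.70, standard error 0.146, adjusted p = 0.00998). Aqp1, the water channel of the apical membrane, was at 10.63 to 10.92 against 10.92 to 11.08 (rise 0.26, adjusted p = 0.0126), and the cation channel gene Trpm3 rose by 0.30 (adjusted p = 0.0122). Heterozygous array 4 and null array 5 met for Aqp1. The falls were the potassium channel genes Kcnj13 (-0.20, called in 5 of 15 fits) and Kcne2 (-0.22, called in 8 of 15), and their count was 0 without null array 1 or 3 or heterozygous array 1, 2, 3 or 5. Kl, the klotho gene (-0.08, adjusted p = 0.385), Clic6 (0.06, adjusted p = 0.472) and the folate receptor gene Folr1 (0.07, adjusted p = 0.44) did not pass.

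Of 42 listed markers of choroid plexus epithelium 37 were matched on the array, all 37 were tested, and 7 rose and 2 fell (24.3% called), with a median of 0.03. Their mean level was 10.31 to 10.45 over heterozygous and 10.45 to 10.49 over null arrays, and Ttr averaged 13.04 and 13.00, so the label of choroid plexus was borne out by its markers in both groups. The number of rises was 3 without null array 1, 4 without null array 3 or heterozygous arrays 1 to 4 in turn, and 9 at most. The falls, Kcnj13 and Kcne2 again, numbered 4 without null array 2, 1 without wild-type array 2, 3 or 5, heterozygous array 4 or null array 5, and 0 without null array 1 or 3 or heterozygous array 1, 2, 3 or 5. Among 26 transcription factors and signals known from choroid plexus development 5 rose and none fell (19.2% called, against 7.93% of all tested genes, median 0.04). Besides Bmp4 they included Meis1, a homeobox factor, at 6.62 to 6.75 in heterozygous and 6.78 to 7.18 in null arrays (rise 0.29, adjusted p = 0.0112). That count was 2 without null array 1 and 3 without null array 3 or heterozygous array 2 or 4.

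Of 44 tested genes of motile cilia 8 fell and 2 rose (22.7% called, against 7.93% of all tested genes), with a median of -0.05. Pifo, a protein of the ciliary base, was at 7.28, 7.36, 7.23, 7.32 and 7.21 in heterozygous and 6.78, 6.70, 6.80, 7.09 and 7.15 in null arrays, with no overlap (difference -0.38, adjusted p = 0.0103). Cfap54, a protein of the ciliary axoneme, moved the other way, from 8.11 to 8.46 in heterozygous arrays to 8.64 to 8.97 in null arrays (difference 0.48, adjusted p = 0.00256), also with no overlap. The number that fell was 3 without null array 1, 1 without null array 3, 1, 3, 3, 4 and 2 without heterozygous arrays 1 to 5, 5 without wild-type array 1, 2 or 3 and 4 without wild-type array 4. Without null array 2 it was at most 11, and the number that rose was 6.

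Of 19 genes of the membrane skeleton, in which adducin works, 1 fell and 1 rose, with a median of 0.04. Their share called, 10.53%, was near the 7.93% of all tested genes. Sptb, a beta-spectrin, fell by 0.21 on the log2 scale, a call lost without null array 4 or heterozygous array 1, 3 or 4, and the rise was in the glucose carrier Slc2a1, which adducin and dematin anchor to spectrin in red cells. A further gene rose without null array 2 or 5 or wild-type array 5, which makes 2. Of 34 other actin regulators none fell and 2 rose (5.88% called), 0 to 3 when an array was left out. These were Capg, which caps actin filaments (rise 0.39, lost without null array 1 or heterozygous array 2, adjusted p up to 0.0565), and Arpc5, a subunit of the branching complex Arp2/3 (rise 0.23, called in 3 of the 15 fits). Among 24 focal adhesion genes Tns4 alone was called (4.17%). Of 32 genes of junctions and polarity 3 rose and 1 fell (12.5%, median 0.09). Tjp1, the tight junction scaffold ZO-1 that binds actin, was at 7.61, 7.71, 7.70, 7.66 and 7.74 in heterozygous and 8.25, 8.06, 8.13, 8.21 and 8.02 in null arrays. The groups were narrow and apart, and the rise was 0.45 (standard error 0.0765, adjusted p = 0.00301). The number of junction genes that rose was 1, Tjp1, without null array 1 or 3 or heterozygous array 1 or 2.

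Genes of antioxidant defence and conjugation changed in both directions. Of 30 tested, 4 rose and 4 fell (26.7% called, against 7.93% of all tested genes), with a median of -0.05. Besides Gpx3 and Sult1c2 the rises were Nqo1, a cytosolic quinone reductase, at 7.86 to 8.05 in heterozygous and 9.09, 8.21, 8.48, 8.34 and 8.70 in null arrays (0.62, adjusted p = 0.00557), and Gstm1, a cytosolic glutathione transferase (0.43, adjusted p = 0.00198). Both were apart between the groups. Besides Ltc4s and the endoplasmic reticulum peroxidase gene Gpx8 (difference -0.31, called in 10 of the 15 fits), the falls were the mitochondrial peroxidase gene Prdx3, at 8.72 to 8.93 against 8.07 to 8.64 (difference -0.45, adjusted p = 0.00864), and Sod2, the mitochondrial superoxide dismutase (difference -0.31, adjusted p = 0.0196, lost without null array 3 or heterozygous array 3, up to 0.052). The falls numbered 2 without null array 3.

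Of 20 clock genes 4 rose and 1 fell (25.0% called), and the number that rose was 0 without null array 1, null array 3 or heterozygous array 3, 1 without heterozygous array 1 and 2 without heterozygous array 2 or 4. Of 15 glucocorticoid targets and 10 immediate early genes none was called, and the glucocorticoid target Fkbp5 had a difference of 0.71 (adjusted p = 0.12). Of 18 imprinted genes 2 rose and 1 fell (16.7%). Slc22a18, an imprinted transporter gene, was at 5.48 to 5.78 in heterozygous and 5.97 to 6.50 in null arrays (rise 0.59, adjusted p = 0.00109), Igf2r, which clears insulin-like growth factor 2, had a difference of -0.24 (adjusted p = 0.0178), and Dlk1 a rise of 0.76 that was called in 8 of the 15 fits. The number of imprinted genes that rose was 5 without null array 2 and 1 without null array 1 or 3 or heterozygous array 2 or 3. Of 38 genes whose loss is known to cause hydrocephalus 2 rose and 1 fell, a share of 7.895% that is near the 7.93% of all tested genes, and the rises numbered 6 without null array 2, 4 without heterozygous array 5 and 1 without null array 1 or 5 or heterozygous array 1 or 2. Jhy, a ciliary gene of that list, rose by 0.68 (adjusted p = 0.0312) and lost its call without null array 1 or 5 or heterozygous array 1 or 2 (adjusted p up to 0.0891).

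**Figure D4:**
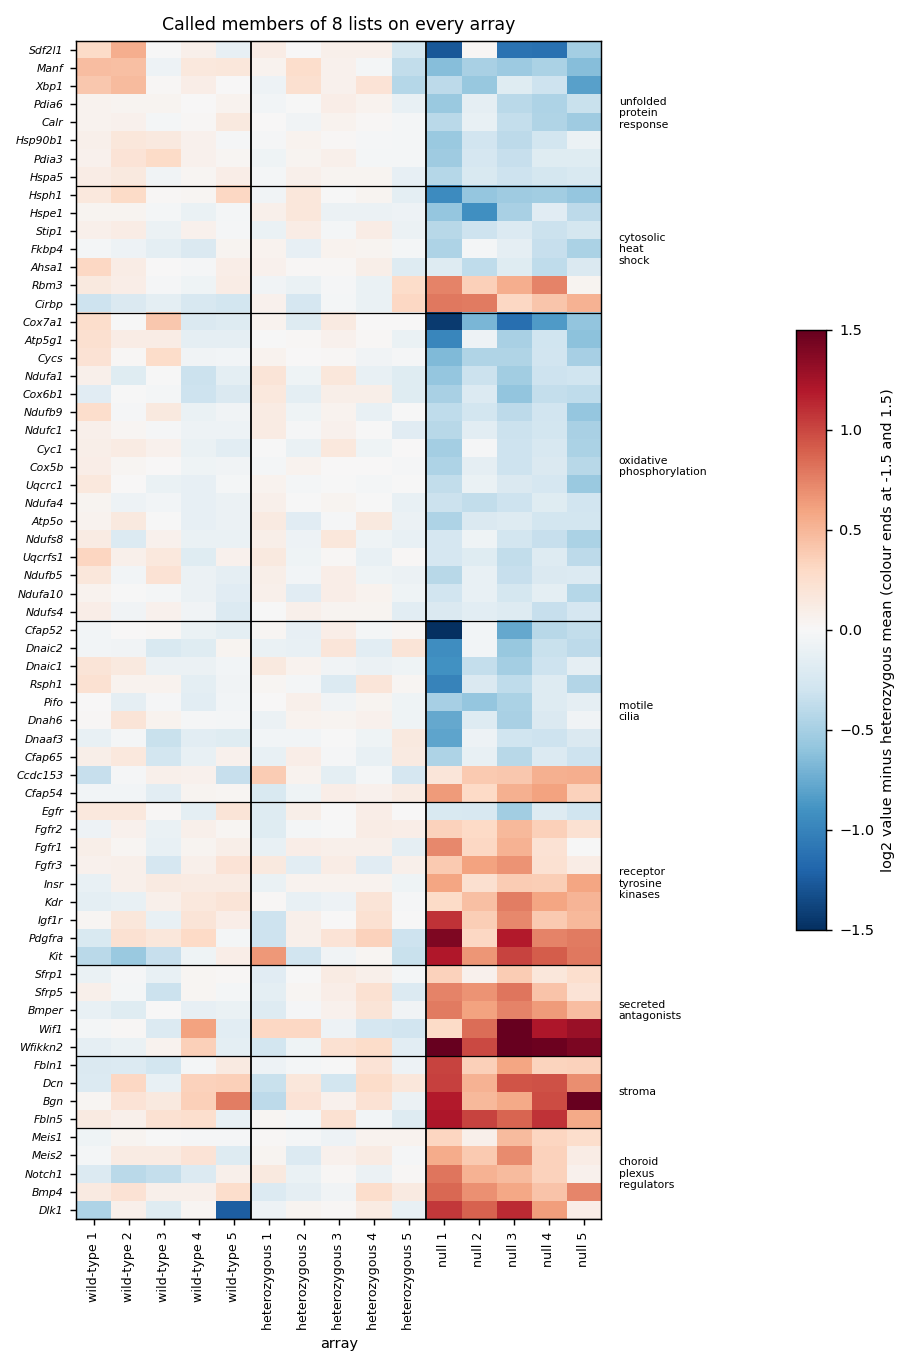
Called members of 8 gene lists (rows) on every array (columns). Colour is the log2 value minus the heterozygous mean of that gene, with the scale ending at 1.5 in either direction. Null array 2 is the palest of the null arrays in many rows: its Sdf2l1 is 8.44 against a heterozygous mean of 8.43, and its Pdgfra 8.29 against 7.98.

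The other cell types of the tissue were read from their own markers. Cerebellar and neuronal RNA was highest in 1 heterozygous array: the mean of 11 cerebellar neuron markers was 7.89 there, 6.34 to 6.46 in the other heterozygous arrays and 6.04 to 6.51 in null arrays, and none was called (median -0.55, or -0.23 without heterozygous array 1). Oligodendrocyte markers followed the same array (7.16, against 6.12 to 6.18 in the other heterozygous and 5.63 to 6.62 in null arrays), with 0 of 10 called and a median of -0.22 that turned to 0.03 without heterozygous array 1. The median of the 11 neuron markers likewise turned from -0.13 to 0.08 without it. Gabra6, at -0.88 (adjusted p = 0.132), and the synaptic gene Snap25, at -0.28 (adjusted p = 0.603), were not called.

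Some markers of stroma and vessels were higher in null arrays. Of 21 stroma markers 5 rose and none fell (23.8% called, median 0.18), and their mean level was 6.98 to 7.30 over heterozygous and 7.19 to 7.60 over null arrays. The rises were Bgn, Dcn, Fbln5, Pdgfra and Fbln1. Fbln1, a matrix protein, rose by 0.53 (7.60 to 7.88 against 8.01 to 8.69, adjusted p = 0.0122). The mean of 10 endothelium markers was 6.29 to 6.44 over heterozygous and 6.35 to 6.84 over null arrays. Of these markers 2 were called higher (20%, against 7.93% of all tested genes), or 4 without null array 5. The number was 2 with sex as a covariate and 0 with the label number as a covariate. Cdh5, the endothelial cadherin, was at 4.89 to 5.35 against 5.74, 5.74, 6.11, 6.25 and 5.35 (rise 0.74, adjusted p = 0.00637). All 5 null arrays were above the filter value of 5.33, so Cdh5 could pass the filter through the null group alone. Meninges markers averaged 6.32 to 7.06 and 6.76 to 7.71, with null array 4 highest. Of 10 meninges markers 1 was called (10%, against 7.93% of all tested genes), and 0 with the label number as a covariate. The part of these cells in the rises of the matrix and receptor genes was not tested.

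Of 19 markers of astrocytes and radial glia 6 rose and none fell (31.6% called, median 0.15, or 0.35 without heterozygous array 1). The rises numbered 3 without null arrays 1 and 5 and 2 with sex or with the label number as a covariate. Their mean level did not separate the groups, at 7.17 to 7.80 over heterozygous and 7.42 to 7.78 over null arrays, heterozygous array 1 being highest. Vim, the intermediate filament vimentin, was at 8.98 to 9.41 in heterozygous and 10.73, 9.40, 9.88, 9.82 and 9.76 in null arrays (rise 0.73, adjusted p = 0.0137), and Sox2, a progenitor transcription factor, at 7.60 to 7.88 and 8.0 to 8.21 (rise 0.36, adjusted p = 0.00985). Gfap, the defining filament of astrocytes, had a difference of 0.11 (adjusted p = 0.861), and Aqp4, their water channel, one of 0.23 (adjusted p = 0.525). Of 8 macrophage, 3 erythroid, 5 pericyte and 6 cell cycle genes none was called, of 9 ependyma markers 2 rose, and none of 13 lymphocyte and neutrophil genes passed the filter on low values.

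**Figure D5:**
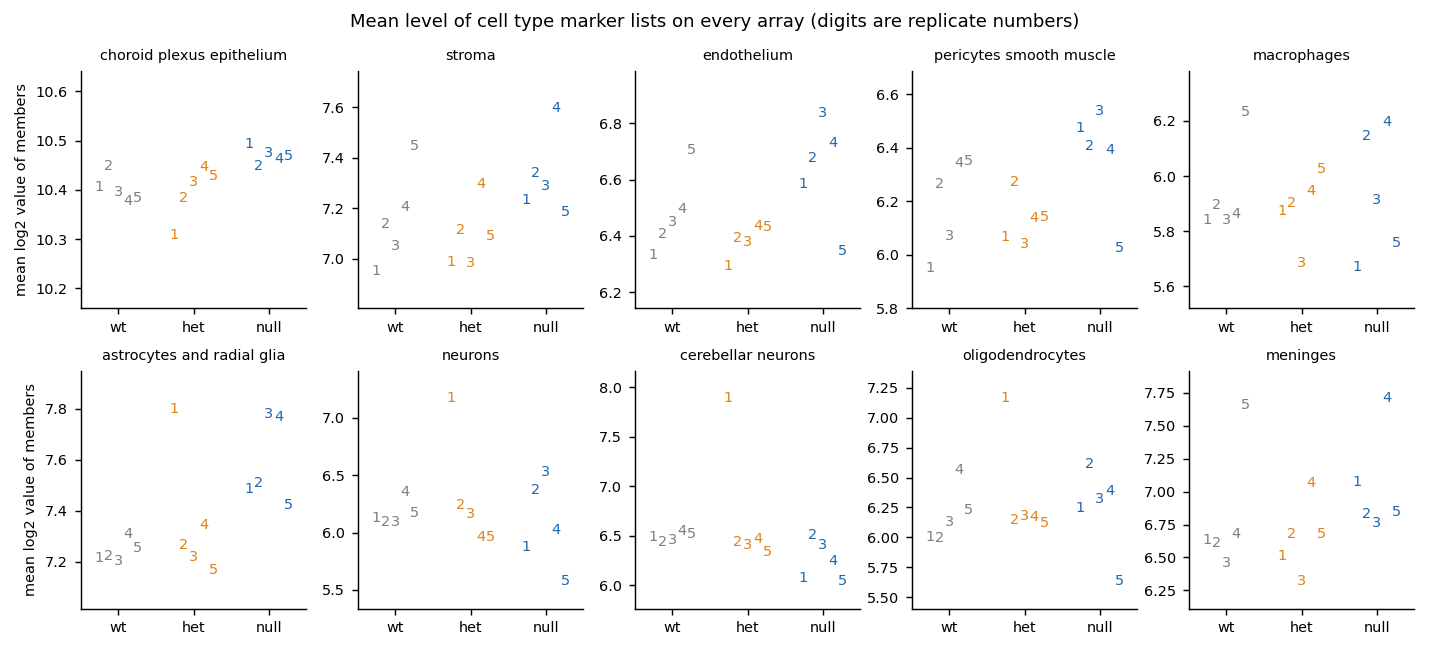
Mean log2 value (vertical axis) of 10 lists of cell type markers on every array of the 3 groups; the digit is the replicate number. Heterozygous array 1 stands out in cerebellar neurons (7.89) and oligodendrocytes (7.16), and null array 4 and wild-type array 5 are highest in meninges (7.71 and 7.66).

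The last comparison asked whether the step from heterozygous to null differed from the step from wild-type to heterozygous. The heterozygous arrays enter both steps, with opposite sign, so the steps were compared only by the contrast of the whole design (the second step minus the first). For 6 of the 10069 genes (0.0596%) the steps differed, at adjusted p between 0.0268 and 0.0438. Fbln5 averaged 8.11 in wild-type arrays, 8.0 in heterozygous ones and 8.95 in null ones, so that its second step exceeded its first by 1.07, and Slc6a15 averaged 8.62, 8.46 and 9.34, an excess of 1.04. The other 4 fall outside the rule for named genes and are named because they are so few. Bckdhb, a subunit of the branched-chain keto acid dehydrogenase, averaged 7.63, 7.34 and 7.78 (0.73), and Cmpk1, a pyrimidine nucleotide kinase, 8.16, 7.88 and 8.31 (0.72). In both, the heterozygous arrays were the lowest group, as they were the highest for Mrto4, a ribosome assembly factor (7.11, 7.34 and 6.72, a contrast of -0.84), and Gm5771 (5.49, 5.99 and 5.56, a contrast of -0.92). For the lists above, the first step had medians of -0.07 (unfolded protein response), -0.02 (oxidative phosphorylation), -0.03 (receptor tyrosine kinases) and 0.02 (secreted antagonists), beside -0.28, -0.21, 0.34 and 0.39 for the second. No contrast of the steps was made for a list, so these medians do not show that the steps differed. Without null array 2 the steps differed in 126 genes, and leaving out null array 3, wild-type array 1 or heterozygous array 2 or 4 gave none. Leaving out wild-type array 3 or 4 or heterozygous array 3 gave 3, heterozygous array 5 gave 2 and heterozygous array 1 gave 1.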

How the data were processed

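The deposited values were log2 expression values of 35556 probe sets on 15 arrays, made by the authors with RMA (background correction, quantile normalisation and probe set summary) in Affymetrix Expression Console 1.1, per the submitters' processing notes; the log base was read from their range of 1.57 to 13.89. Array medians were 4.78 to 4.88. The number of arrays limits the precision, since array values carry no read depth.

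Probe sets were named through GEO's platform annotation, with symbols updated by gene ID for 21698 of the 21789 that had 1 symbol (RefSeq, GRCm38.p6). Another 1621 listed probe sets had several symbols and were left out, and 12146 were unlisted. Each of 19938 genes was represented by its probe set of highest mean, and genes above 5.33 in at least 5 arrays were tested. A gene high in 1 group of 5 arrays alone could therefore pass. limma 3.58.1 in R 4.3.3 (lmFit, eBayes) was fitted to all 15 arrays with 3 groups and no covariate, which leaves 12 residual degrees of freedom, and was tested on simulated data. Add1 was tested by an exact permutation test over 252 regroupings.

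Groups came from the genotype labels. No 2 arrays held the same values. Replicate numbers are those of the titles, and they did not pair the arrays, as the correlations of the deviations of same-numbered null and heterozygous arrays were -0.253 to 0.238. Named were Add1, the 15 largest rises and 15 largest falls among called genes, and up to 4 members of each list by unadjusted p; predicted genes and multigene families were counted but not named, and any other gene is named with its values known. The 43 lists and the comparison were chosen with earlier results of these data known. Of the list symbols, 73 were not found on the array. Alternatives were the filter, probe set rule, scaling, limma options, array weights, blocks and covariates, and arrays left out. The setting without null arrays 1 and 5 and heterozygous array 1 together was chosen after seeing the data.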

Additional observations from a re-analysis of the deposited data

Results flagged for a closer look

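Among 62 groups of 5 arrays, those of the named largest changes and Add1, 6 held an array set apart from the other 4, where chance gives about 1 in 20. In Cep290, null array 2 was at 4.63 and the other null arrays at 5.97 to 6.31. In Sult1c2, heterozygous array 1 was at 4.75, below 5.24 to 5.39. In Sdf2l1, heterozygous array 5 was at 8.16, below 8.43 to 8.54. Null array 1 was the lowest for Hsph1, at 8.24 against 8.60 to 8.66, and for Plcd4, at 5.18 against 5.86 to 6.06. In Ppp2r2c, heterozygous array 4 was at 8.44, above 8.05 to 8.12.

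By the contrast of the 2 steps, the step from heterozygous to null differed from the step from wild-type to heterozygous in 6 genes. The heterozygous arrays enter both steps, so a gene in which that group alone deviates can be called. Null and wild-type arrays did not differ for Bckdhb, Cmpk1 and Gm5771 (limma adjusted p = 0.166, 0.182 and 0.611). The contrast was 0.73 for Bckdhb, 0.72 for Cmpk1, 1.07 for Fbln5 and 1.04 for Slc6a15, and it was -0.92 for Gm5771 and -0.84 for Mrto4.

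For Fbln5 and Slc6a15 the change lay in the second step. For Cmpk1 all 5 heterozygous arrays, at 7.82 to 7.93, were below all 5 null arrays, at 8.22 to 8.36, and Mrto4 had heterozygous arrays at 7.12 to 7.46 above null arrays at 6.50 to 6.86. For Gm5771 the heterozygous arrays were at 5.86 to 6.08, above null arrays at 5.45 to 5.75 and wild-type arrays at 5.38 to 5.73.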

How the results depend on the processing

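The count of 798 genes in null against heterozygous arrays moved to 500 with no filter, 343 with only the 10 null and heterozygous arrays, 1297 with array weights, 195 with the label number as a covariate, 330 without null arrays 1 and 5, 158 with sex from Xist as a covariate and 295 without those arrays and heterozygous array 1. Leaving out 1 array gave 356 to 1815. The other settings gave 550 to 932. Of the called genes, 282 were shared without null arrays 1 and 5, 144 with the sex covariate and 157 with the label number. With the replicate block, which the arrays' deviations do not bear out as a pairing, 550 genes were called, 524 of them shared, and the steps differed in 1 gene.

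The count of 6 genes whose steps differed became 0 with no filter, 78 with array weights, 2 without null arrays 1 and 5, 1 with the sex covariate and 3 without heterozygous array 1 as well, and 0 to 126 when 1 array was left out. The step contrast could not be had from the 10 arrays alone. Add1 differed by -0.17 with median-centred arrays (exact permutation p = 0.0397, past the threshold) and by -0.19 to -0.11 when 1 array was left out, where it passed without null array 3 alone (-0.19, exact permutation p = 0.0476). No called gene among those named turned its direction under these settings, while 12 genes that were not called and the medians of 13 of 42 lists did in at least 1. Without null arrays 1 and 5 and heterozygous array 1 the median of neuron markers went from -0.13 to 0.39 and that of oligodendrocyte markers from -0.22 to 0.33. With the label number the medians of solute carriers (-0.02) and choroid plexus epithelium (-0.03) went below 0. The causes of these changes were not tested. Fits that left arrays out also had fewer arrays, and the part of that was not tested either. Within the label number 460 there was 1 array of each genotype, too few for a test.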

Other observations

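The 100 tested genes nearest to Add1 on chromosome 5, 50 on each side by order along the chromosome, were looked at together. Of these, 3 were called higher in null than in heterozygous choroid plexus and 3 lower, a share of 6% that is near the 7.93% of all tested genes, and their median difference was -0.01. The higher ones were Khk, fructokinase, from a mean of 5.85 to 6.20 (0.34, adjusted p = 0.0428), the zinc finger gene Zfp512 (0.25, adjusted p = 0.0378) and Fgfr3 (0.40, adjusted p = 0.0341). The lower ones were Ppp2r2c, from 8.16 to 7.55 (-0.61, adjusted p = 0.00103), Hs3st1, a heparan sulfate sulfotransferase (-0.28, adjusted p = 0.00995), and Lrpap1, the chaperone of LDL receptor family proteins (-0.20, adjusted p = 0.0258). Khk, Zfp512, Lrpap1 and Hs3st1 were named after their values were seen, and their calls were not followed in the fits that left out 1 array.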
